A study of Homo sapiens with 24 samples.

Results

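The genes described here are 44 human genes whose products build, open and copy DNA at replication origins and forks. They were chosen by name and matched by symbol to the gene identifiers of the deposited count files; all 44 were found among 57500 identifiers and all 44 passed the filter on low counts in every fit. By role, 9 genes license origins (ORC1 to ORC6, CDC6, CDT1, GMNN), and 14 are grouped under the helicase (MCM2 to MCM8, MCM10, CDC45, GINS1 to GINS4, WDHD1). Of these, MCM8 is a helicase of recombination and WDHD1 ties the helicase to polymerase alpha. A further 9 belong to the replicative polymerases and primase (POLA1, POLA2, PRIM1, PRIM2, POLD1, POLD2, POLD3, POLE, POLE2), and 6 to the clamp and its loader (PCNA, RFC1 to RFC5). The last 6 belong to the maturation of nascent strands and the cover of single-stranded DNA (FEN1, LIG1, DNA2, RPA1, RPA2, RPA3). The study used H2052, an established cell line of pleural mesothelioma (a cancer of the membrane around the lungs), grown with fetal bovine serum. All cells received a biotin-tagged RNA mimic at 20 nM with Lipofectamine RNAiMAX: the treated cells got miR-497-5p (miR-497-5p-RE in the labels, a suffix that the sources used here do not explain), the control cells a scrambled sequence without a target. RNA was collected 12 h and 72 h later, either from the cells (the input, here RNA-seq) or from what streptavidin beads held back of a cytoplasmic extract (here pull-down). Assay, time and mimic gave 8 groups of 3 libraries: control and miR-497-5p at 12 h and at 72 h in RNA-seq, and the same 4 in the pull-down. No group was left without a mimic, so an effect of transfection that both mimics share is not visible, and all results come from 1 tumour line. Whether replicates came from separate cultures is not given in the labels; the p-values therefore reflect spread among these libraries alone, and that spread may be technical.

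Replication starts in 2 steps that the cell keeps apart in time, as textbooks describe it. In G1 the origin recognition complex, CDC6 and CDT1 load the MCM ring onto DNA, and geminin (GMNN) blocks CDT1 afterwards. In S phase CDC45 and the GINS complex join the ring to make the active helicase, primase and polymerase alpha lay down primers, and polymerases delta and epsilon copy the strands while they ride on the PCNA clamp. Most of these genes are known targets of E2F transcription factors and are made in cycling cells. miR-497-5p belongs to the miR-15/16 family, small RNAs known for lowering cyclins and other regulators of the G1 to S transition.

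The mimic was named in the labels without its letters, so the sequence shown is the RefSeq entry of the natural microRNA. It is given with miR-16-5p to show that both carry the same seed, bases 2 to 8, which is in capitals and decides which messages are matched.

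miR-497-5p: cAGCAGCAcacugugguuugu

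miR-16-5p: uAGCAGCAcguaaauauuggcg

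The longest 3′ UTR that GENCODE release 44 annotates for each gene was searched for the complement of the seed (TGCTGCT, called 7mer-m8, or TGCTGCTA, called 8mer, on the transcript strand). A match was found in 7 of the 44 genes (15.9%), against 26.2% of the 13947 genes with a 3′ UTR that were tested in RNA-seq. The median 3′ UTR was 945.5 bases long in the 44 genes and 1509 bases in the tested genes, so the shares compare windows of unequal length. The 7 genes were CDC6, CDT1, GINS2, GINS4, MCM8, ORC4 and POLD3. The words GCTGCTA and GCTGCT, which cover less of the seed, were not counted as a match. Among the genes without a match, POLE and WDHD1 hold GCTGCTA, and MCM2, ORC2 and POLA2 hold GCTGCT alone. The windows of 30 bases below (GRCh38, transcript strand, matched bases in capitals) are a selection of the matches in 6 of these genes; a match is a description of letters, not evidence of binding.

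CDC6 (chr17:40304192-40304198): ttctaggtcatTGCTGCTcttaagacttta

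CDT1 (chr16:88808521-88808527): acctctgtcctTGCTGCTggtggggaaggg

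GINS2 (chr16:85677390-85677396, minus strand): gtcactttcagTGCTGCTcttgatggattt

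MCM8 (chr20:5995453-5995459): ctggaagaaagTGCTGCTgcctccctgccc

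ORC4 (chr2:147933378-147933384, minus strand): gggaggaacagTGCTGCTtgttggcctttc

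POLD3 (chr11:74641537-74641543): aggagctgccgTGCTGCTgatacggggtgt

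POLD3 (chr11:74641562-74641568): ggtgtgctttaTGCTGCTctttgcggtttg

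RNA-seq libraries held 21561816 to 30602007 counts and pull-down libraries 8262425 to 30650982, the lowest in miR-497-5p at 72 h, replicate 2. The biological coefficient of variation, the spread between replicates beyond counting error, was 0.06 in RNA-seq and 0.349 in the pull-down, so the pull-down resolves only larger differences. Levels below are CPM, read counts scaled to library size with TMM factors. Of the defining mesothelial markers, MSLN stood at 49.2 to 75.3 CPM and WT1 at 10.1 to 22.1 CPM in RNA-seq, CALB2 at 0.716 to 1.94 CPM, UPK3B below 0.688 CPM, and ITLN1 reached 0.0403 CPM at most. Markers of other cell types differed between the 12 h RNA-seq libraries. The summed level of 28 squamous epithelium markers was 799, 756 and 298 CPM in control and 1116, 122 and 246 CPM with miR-497-5p, and that of 8 blood cell markers 534, 437 and 7.67 CPM in control and 12.0, 454 and 7.204 CPM with miR-497-5p. Their ranges overlapped between the mimics. Of the 28 squamous markers 5 were called lower and none higher with miR-497-5p, against 5.30% and 7.25% of all genes tested. The median log2 fold change of the 28 was -0.84. The part of the squamous and blood cell transcripts in the 12 h results was not tested. At 72 h the squamous sum was 169, 170 and 180 CPM in control and 220, 202 and 210 CPM with miR-497-5p; KRT10, a keratin, made up 154 to 192 CPM of it, KRT13 stood at 0.159 to 0.338 CPM, and 16 to 18 of the 28 genes were at 0 in each library. None of the 28 was called at 72 h. The summed level of 12 mesothelial markers was 4119 to 4147 CPM in control and 6716 to 6751 CPM with miR-497-5p at 72 h, with 5 of the 10 tested higher and 3 lower (27.9% and 29.6% of all genes tested). Most of this sum came from VIM and 3 keratins. Over all RNA-seq libraries VIM stood at 1074 to 3964 CPM, KRT8 at 700 to 932, KRT18 at 766 to 1040 and KRT19 at 569 to 1066 CPM. MSLN, WT1 and CALB2 made up little of it, so the sum does not stand for the defining markers. The part of the marker differences in the 72 h results was not tested.

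At 12 h, 6 of the 44 genes were lower and none higher with miR-497-5p in RNA-seq (edgeR quasi-likelihood test, Benjamini-Hochberg adjusted p under 0.05 over 17335 genes), and every change was small. Over all genes tested, 5.30% were lower and 7.25% higher. The median log2 fold change was -0.05 over the 44 genes and 0.01 over all genes. In bulk RNA, fewer cells in S phase and less RNA per cell cannot be told apart, here and in all results below. The 6 genes were MCM4, MCM8, MCM10 and GINS1 of the helicase group, the polymerase epsilon catalytic subunit POLE and the flap endonuclease FEN1; no gene of the licensing or clamp groups passed the test.

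MCM4, a subunit of the replicative MCM ring, had 125, 131 and 133 CPM in control and 116, 113 and 116 CPM with miR-497-5p, and fell by 0.17 ± 0.04 on the log2 scale (SE, adjusted p = 0.00335). MCM10, which helps to start the helicase, had 8.40, 7.80 and 8.99 CPM in control and 6.71, 5.93 and 5.99 CPM with the mimic, a log2 fold change of -0.44 ± 0.14 (adjusted p = 0.0308). POLE had 30.5, 32.4 and 27.2 CPM in control and 25.7, 25.9 and 24.3 CPM with the mimic (-0.25 ± 0.07, adjusted p = 0.00677). In each of these genes every treated library lay below every control library. Here and below, the share of all genes tested whose groups stood apart in this way is not given. The other 3 genes fell as well, MCM8 by 0.18 (adjusted p = 0.0405), GINS1 by 0.17 (adjusted p = 0.0205) and FEN1 by 0.15 (adjusted p = 0.0316). The nearest to a rise were PRIM2, the large primase subunit, with 12.3, 12.9 and 13.4 CPM in control and 14.8, 16.01 and 14.9 CPM with the mimic (0.25 ± 0.10, adjusted p = 0.0889), and POLD2 (0.10 ± 0.04, adjusted p = 0.0764). PRIM2 has closely related copies in the genome, so its unique counts may be incomplete.

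Among the 7 genes with a seed match, MCM8 alone was called at 12 h, against 5 of the 37 without one. POLE, among these 5, holds the word GCTGCTA, which was not counted as a match. CDC6 had 51.6, 53.2 and 55.1 CPM in control and 50.8, 52.0 and 51.5 CPM with the mimic (-0.05 ± 0.06). CDT1 (-0.01 ± 0.06), GINS2 (-0.02 ± 0.04) and ORC4 (0.03 ± 0.07), differed by less than their standard errors; POLD3 (-0.13 ± 0.07) and GINS4 (-0.11 ± 0.08) did not pass the test. MCM4 was the only one of the 6 calls that stood in every alternative analysis: without control replicate 2 it was the only call, without control replicate 3 there were 2 lower calls and without miR-497-5p replicate 2 there were 3, and POLD2 was then higher (0.14, adjusted p = 0.00994). Without miR-497-5p replicate 1 POLD1 was lower (-0.20, adjusted p = 0.0379) and MCM8 was not called. Scaling to library totals gave 8 lower calls (MCM2 and MCM3 added) and turned the split over all genes from 919 lower and 1256 higher to 1746 lower and 722 higher.

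**Figure D1:**
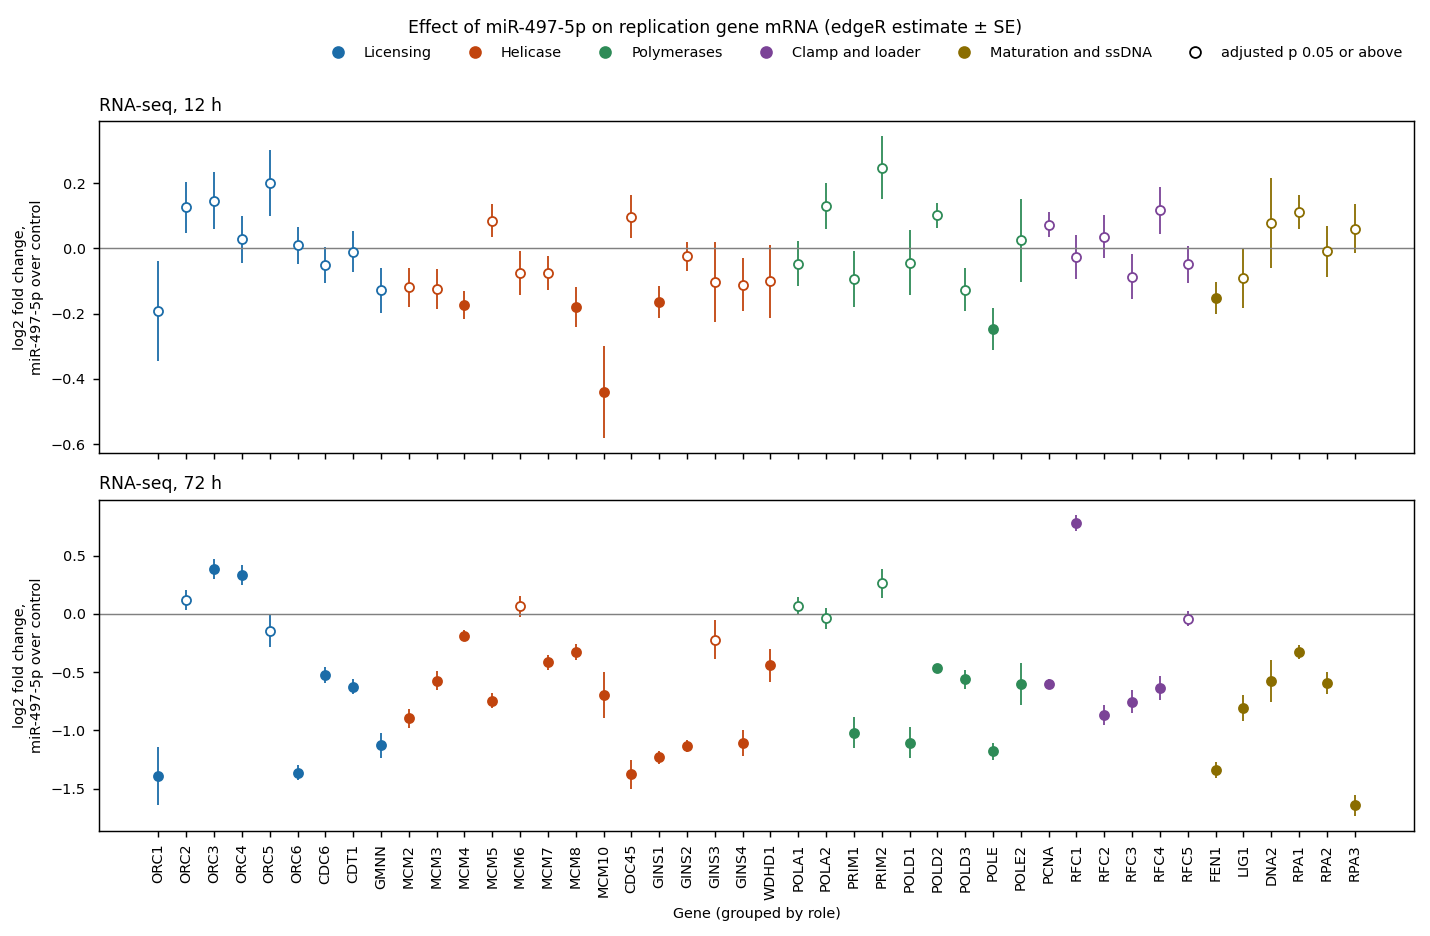
Log2 fold change of miR-497-5p over control in RNA-seq for each of the 44 genes, ordered by role, at 12 h (upper panel) and 72 h (lower panel, wider axis), with standard errors as bars; filled points have an adjusted p under 0.05. At 12 h 6 genes are filled, all below 0; at 72 h 33 are filled below 0 and ORC3, ORC4 and RFC1 above it.

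At 72 h most of the replication genes were lower with miR-497-5p: 33 of 44 fell and 3 rose, against 29.6% lower and 27.9% higher of all 17335 genes tested. The median log2 fold change was -0.60 over the 44 genes and 0.00 over all genes. By role, 5 of 9 licensing genes, 12 of 14 helicase genes, 6 of 9 polymerase genes, 4 of 6 clamp genes and all 6 maturation and RPA genes fell. The 3 that rose were ORC3, ORC4 and RFC1. Not called were ORC2, ORC5, MCM6, GINS3, POLA1, POLA2, PRIM2 and RFC5. Under library totals the members' counts were again 33 and 3, while the split over all genes moved from 5128 lower and 4835 higher to 6137 lower and 3808 higher.

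In the licensing group the origin recognition complex split. ORC6 (ENSG00000091651, chr16:46689643-46698394), its smallest subunit, had 42.1, 42.0 and 39.5 CPM in control and 14.6, 16.1 and 17.3 CPM with the mimic, a log2 fold change of -1.36 ± 0.07 (adjusted p = 1.69e-22). The groups were far apart. ORC1, the ATP-binding subunit that cells degrade after G1, fell by 1.39 ± 0.25 from a low level (2.02, 1.96 and 2.16 CPM in control; 1.12, 0.582 and 0.628 CPM with the mimic; adjusted p = 4.84e-06). The core subunits ORC3 and ORC4 went the other way.

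ORC3 (chr6:87590067-87667453) had 14.0, 14.2 and 15.8 CPM in control and 18.1, 20.2 and 19.2 CPM with the mimic (0.39 ± 0.08, adjusted p = 0.000118). ORC4 (chr2:147930397-148021604), whose 3′ UTR holds 1 8mer and 2 7mer-m8 matches, had 14.2, 14.7 and 12.1 CPM in control and 16.1, 17.8 and 17.8 CPM with the mimic (0.33 ± 0.09, adjusted p = 0.000951). In both, every treated library exceeded every control library, while ORC2 (0.12 ± 0.09) and ORC5 (-0.15 ± 0.14) did not pass the test. Of the bases in ORC4's annotated exons 6.58% also belong to exons of other genes, and the sources used here do not say whether counting used strand, so reads of such stretches cannot be assigned with certainty.

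The loaders and their inhibitor fell together. GMNN, which restrains CDT1, had 11.8, 11.03 and 9.16 CPM in control and 5.27, 4.02 and 5.31 CPM with the mimic (-1.13 ± 0.10, adjusted p = 8.53e-13). CDT1 itself had 41.3, 40.6 and 41.9 CPM in control and 28.0, 25.1 and 27.1 CPM with the mimic (-0.62 ± 0.07, adjusted p = 2.58e-11). CDC6, the ATPase that loads the MCM ring with CDT1, had 19.9, 18.8 and 20.0 CPM in control and 14.6, 12.8 and 13.4 CPM with the mimic (-0.52 ± 0.07, adjusted p = 9.00e-09). The groups did not overlap in any of the 3, a trait given without its share over all genes.

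In the helicase group 3 of the 4 GINS subunits and their partner CDC45 fell. GINS2 (ENSG00000131153, chr16:85676198-85690073) had 78.7, 81.6 and 83.2 CPM in control and 35.4, 38.4 and 37.2 CPM with the mimic, a fall of 1.14 ± 0.05 on the log2 scale (adjusted p = 1.14e-24). GINS1 had 51.2, 48.4 and 51.4 CPM in control and 22.0, 19.8 and 22.4 CPM with the mimic (-1.23 ± 0.06, adjusted p = 2.49e-23). GINS4 had 8.55, 7.88 and 8.49 CPM in control and 3.68, 3.81 and 4.06 CPM with the mimic (-1.11 ± 0.11, adjusted p = 1.02e-11), although 23.6% of its exon bases are shared with other genes. The fourth subunit, GINS3, was low in both groups, shares 10.9% of its exon bases with another gene and was not called (-0.22 ± 0.17). CDC45, which joins GINS in the active helicase, fell by 1.38 ± 0.12 (6.65, 6.69 and 6.04 CPM against 3.12, 2.27 and 2.08 CPM, adjusted p = 1.58e-13).

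Of the 6 subunits of the MCM ring, which work in equal number, 5 fell and MCM6 was not called; differences between subunits were not tested. MCM2 fell by 0.89 ± 0.08, MCM5 by 0.75 ± 0.06, MCM3 by 0.57 ± 0.08, MCM7 by 0.41 ± 0.06 and MCM4 by 0.19 ± 0.05, all with an adjusted p of at most 0.00061. MCM5 had 24.8, 24.2 and 24.7 CPM in control and 14.2, 15.6 and 14.2 CPM with the mimic. MCM6 (ENSG00000076003, chr2:135839626-135876426) had 10.9, 10.1 and 7.99 CPM in control and 10.9, 9.36 and 10.0 CPM with the mimic, and its groups overlapped (0.06 ± 0.09, adjusted p = 0.583). Outside the ring, MCM8, a helicase of recombination with 1 seed match, had 24.1, 22.8 and 22.9 CPM in control and 17.5, 19.4 and 18.7 CPM with the mimic (-0.33 ± 0.07, adjusted p = 6.79e-05). WDHD1, which ties the helicase to polymerase alpha, fell by 0.44 ± 0.14 (adjusted p = 0.00735). MCM10 fell by 0.70 ± 0.20 (adjusted p = 0.00223), but without control replicate 2 the value was -0.41 (adjusted p = 0.0892).

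Of the polymerases, the subunits of polymerase epsilon and delta fell, and neither subunit of polymerase alpha was called. POLE (ENSG00000177084, chr12:132623753-132687365), the leading-strand polymerase, had 27.8, 28.7 and 27.5 CPM in control and 12.7, 12.2 and 12.2 CPM with the mimic (-1.18 ± 0.07, adjusted p = 1.34e-18). Its partner POLE2 fell by 0.60 ± 0.18 (adjusted p = 0.00422). The catalytic subunit of polymerase delta, POLD1 (8.77% of its exon bases shared with another gene), fell by 1.11 ± 0.13 (adjusted p = 1.34e-06) and POLD2, the most abundant of the 9 in CPM, from 224, 217 and 226 CPM to 169, 157 and 156 CPM (-0.47 ± 0.04, adjusted p = 2.46e-14). POLD3, with 2 seed matches, had 15.2, 14.2 and 13.5 CPM in control and 9.15, 9.68 and 10.2 CPM with the mimic (-0.56 ± 0.08, adjusted p = 7.58e-08).

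Of the 4 subunits that primase and polymerase alpha form together, PRIM1 alone was called. PRIM1, the catalytic primase subunit, had 4.96, 5.88 and 5.33 CPM in control and 2.81, 2.80 and 2.37 CPM with the mimic (-1.02 ± 0.13, adjusted p = 6.82e-09), and shares 6.77% of its exon bases with other genes. POLA1, the catalytic subunit of polymerase alpha, had 20.6, 18.2 and 19.9 CPM in control and 20.1, 21.9 and 19.6 CPM with the mimic (0.07 ± 0.07, adjusted p = 0.439), with overlapping groups. POLA2 (-0.04 ± 0.09) and PRIM2 (0.26 ± 0.13, adjusted p = 0.068) were not called either; without control replicate 2 PRIM2 was higher (0.39, adjusted p = 0.016), and without miR-497-5p replicate 2 as well (0.33, adjusted p = 0.0405).

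In the clamp loader RFC2, RFC3 and RFC4 fell, the large subunit RFC1 rose and RFC5 was not called. PCNA, the sliding clamp, had 88.9, 89.0 and 82.1 CPM in control and 57.9, 58.4 and 54.9 CPM with the mimic (-0.60 ± 0.04, adjusted p = 1.19e-16). RFC2 had 18.5, 19.1 and 17.3 CPM in control and 11.5, 9.05 and 9.51 CPM with the mimic (-0.87 ± 0.08, adjusted p = 9.95e-13), and RFC3 and RFC4 fell by 0.75 and 0.64. RFC1 (ENSG00000035928, chr4:39287456-39366375), the large subunit that opens the clamp, rose from 21.7, 21.4 and 19.3 CPM to 32.7, 36.7 and 37.8 CPM (0.78 ± 0.07, adjusted p = 4.00e-13). RFC5 was not called (-0.04 ± 0.07), and 10.7% of its exon bases are shared with other genes.

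RPA3 (ENSG00000106399, chr7:7636518-7718607), the smallest subunit of the protein that coats single-stranded DNA, fell more than any other of the 44 genes: 19.7, 20.1 and 18.8 CPM in control and 6.95, 5.24 and 6.52 CPM with the mimic (-1.64 ± 0.09, adjusted p = 1.84e-20). Its partners fell less, RPA2 by 0.59 ± 0.09 and RPA1 by 0.33 ± 0.06. FEN1 (chr11:61792637-61797244), which trims the flaps of lagging-strand fragments, had 31.04, 32.0 and 32.4 CPM in control and 13.3, 11.004 and 13.3 CPM with the mimic (-1.34 ± 0.07, adjusted p = 1.57e-22); 8.68% of its exon bases are shared with TMEM258 and another gene. LIG1, the ligase that seals these fragments, had 8.67, 9.91 and 10.4 CPM in control and 5.52, 6.03 and 5.07 CPM with the mimic (-0.81 ± 0.11, adjusted p = 2.27e-08). DNA2, a nuclease and helicase of long flaps, fell by 0.58 ± 0.18 (adjusted p = 0.00547), but not without control replicate 1 (-0.35, adjusted p = 0.12) or without miR-497-5p replicate 1 (-0.41, adjusted p = 0.0731). The other 34 of the 36 calls at 72 h stood in every alternative run for them.

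**Figure D2:**
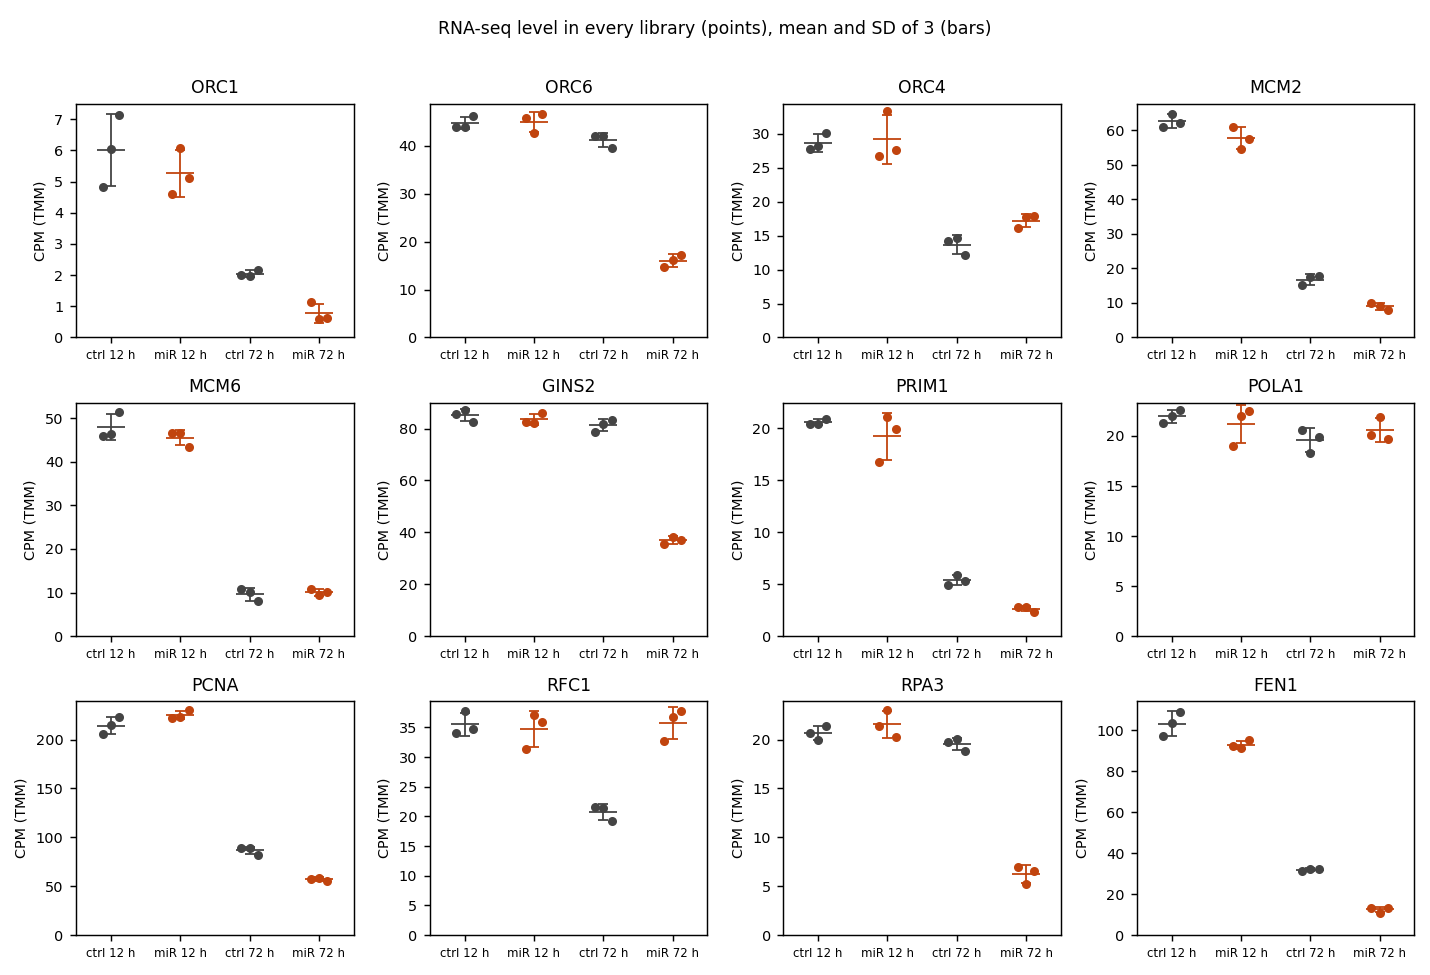
RNA-seq level (CPM, linear axes from 0, a scale of its own for each gene) of 12 of the genes in each library, for control and miR-497-5p at 12 h and 72 h; points are libraries, bars the mean and SD of 3. ORC6, GINS2 and RPA3 stay near their 12 h level in control at 72 h and lie far lower with miR-497-5p, MCM6 is low at 72 h with both mimics, and RFC1 lies lowest in control at 72 h.

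In control cells the same genes differed between the times of culture. From 12 h to 72 h, 37 of the 44 genes fell in control and 2 rose, against 38.4% lower and 36.1% higher of all genes tested, with a median log2 fold change of -1.19 over the 44 genes and -0.00 over all genes. Library-total scaling shifted the median of all genes by -0.25 on the log2 scale in this comparison; the members were then 43 lower and 1 higher, and the split over all genes moved from 6650 lower and 6255 higher to 8400 lower and 4488 higher. The squamous marker sums of the control libraries were also lower at 72 h, and those of blood cell markers, 5.44 to 7.08 CPM at 72 h, were far below 2 of the 3 control libraries at 12 h and close to the third; their part in this comparison was not tested. Harvest time, density of the culture and library preparation cannot be told apart here.

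CDC45 fell most, by 2.56 ± 0.08, from 39.7, 36.1 and 38.6 CPM at 12 h to 6.65, 6.69 and 6.04 CPM at 72 h. MCM6 fell by 2.31 ± 0.08 (46.0, 46.3 and 51.4 CPM against 10.9, 10.1 and 7.99 CPM, adjusted p = 1.22e-27). The helicase group had the lowest median of the 5 roles (-1.46), with 13 of 14 genes lower. PCNA fell from 205.7, 214.7 and 222.7 CPM to 88.9, 89.0 and 82.1 CPM (-1.31 ± 0.04, adjusted p = 1.15e-30), and all 6 clamp genes fell. ORC3 rose by 0.53 ± 0.09 (9.58, 10.2 and 10.6 CPM against 14.0, 14.2 and 15.8 CPM). POLD2 rose by 0.13 ± 0.04 with TMM scaling but fell with library totals (-0.12, adjusted p = 0.00341), so its direction rests on the scaling. Not called were ORC6, GINS2, POLE, RPA3 and CDT1, all of which fell under library totals; CDT1 stood at 0.07 with TMM and -0.18 with library totals.

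This comparison and that of the mimics at 72 h share the 72 h control libraries, so their values are set side by side without a test. MCM6 stood at -2.31 over time in control and 0.06 with the mimic at 72 h. PRIM2 stood at -1.52 and 0.26, RFC1 at -0.77 and 0.78. ORC6 stood at -0.12 and -1.36, GINS2 at -0.07 and -1.14, POLE at -0.10 and -1.18, and RPA3 at -0.08 and -1.64. CDC45, GMNN and FEN1 were low in both (-2.56 and -1.38, -1.80 and -1.13, -1.70 and -1.34). Expressed as a share of the control level at 12 h, the median gene stood at 97.0% with miR-497-5p at 12 h, 43.8% in control at 72 h and 31.5% with miR-497-5p at 72 h. CDC45 reached 6.5% in treated cells at 72 h, ORC3 189%, and RFC1 101% against 58.6% in control.

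**Figure D3:**
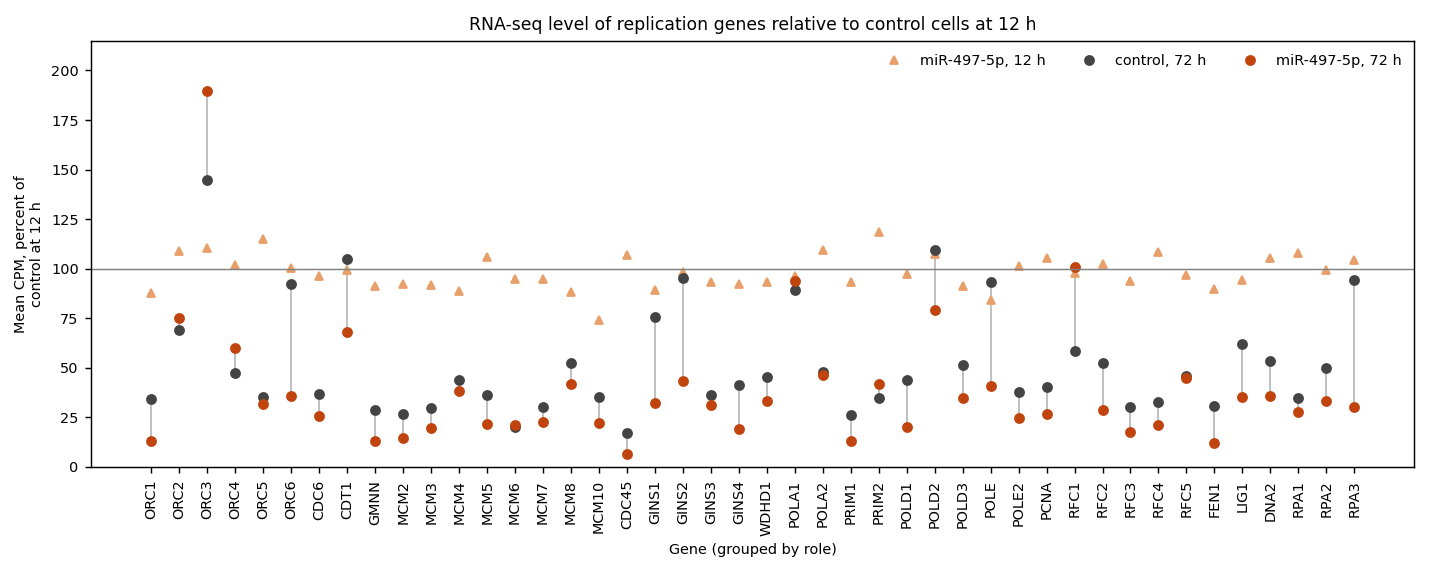
Mean RNA-seq level of each gene (3 libraries a group) as a percentage of its control mean at 12 h, for miR-497-5p at 12 h, control at 72 h and miR-497-5p at 72 h; the grey line joins the 72 h groups and 100% is the control level at 12 h. ORC6, GINS2, POLE and RPA3 hold 92.1% to 95.4% in control at 72 h and 30.2% to 43.4% with miR-497-5p, while MCM6 lies near 20% to 21% with both.

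The effect of the mimic itself differed between the times for 31 of the 44 genes in the test of the 72 h effect minus the 12 h effect: 29 were lower and 2 higher at 72 h (26.2% and 22.5% of all genes tested). MCM4 (-0.01 ± 0.06), MCM8 (-0.15 ± 0.09) and MCM10 (-0.26 ± 0.24) were called at 12 h, and the difference between the times was not called for them; for MCM8 it was with a replicate block and length offset (-0.22, adjusted p = 0.0421). POLE went from -0.25 to -1.18 (difference -0.93 ± 0.10, adjusted p = 4.28e-11), and FEN1 from -0.15 to -1.34 (-1.19 ± 0.08, adjusted p = 8.54e-17).

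Levels were also compared between genes per length of annotated exons, as FPKM (counts scaled to library size and exon length), within the complexes whose subunits work together. PCNA was the highest of the 44 genes by this measure at 12 h, with a mean of 146 FPKM in control. Within the MCM ring the highest and lowest subunit differed 2.06-fold in control at 12 h (MCM4 at 19.0 and MCM5 at 9.21 FPKM) and 3.55-fold in control at 72 h (MCM4 at 8.31 and MCM6 at 2.34 FPKM). With miR-497-5p at 72 h the ratio was 3.95 (MCM4 at 7.29 and MCM2 at 1.85 FPKM). In the origin recognition complex ORC6 was the highest and ORC1 the lowest in control at 72 h (9.56 and 0.648 FPKM), and with the mimic ORC3 was the highest (5.19 FPKM). Among the RPA subunits RPA3 had 6.04 FPKM in control at 72 h, above RPA1 at 4.29 FPKM, and 1.93 FPKM with the mimic, below RPA1 at 3.43 FPKM. These ratios have no test. The length used counts every annotated exon base of a gene, which can exceed the message that the cells make. For RPA3 it was 3232 bases, with a longest 3′ UTR of 482, and for MCM5 7338 bases. The order of subunits within a complex therefore depends on the annotation as well.

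Promoters were examined because most of these genes are textbook E2F targets and moved together. RefSeq windows from 250 bases before to 50 after the transcription start (GRCh38.p14) were available for 37 of the 44 genes. The E2F-type words TTTCCCGC, TTTCGCGC, TTTGGCGC or TTTGCCGC, on either strand and with overlaps counted, were present in 19 of the 37 (51.4%) and in 5.40% of 15843 genes with such a window. The word CCAAT was present in 22 of 37 (59.5%, against 42.1%), and the word TTTGAA, the core of the element of mitotic genes, in none of the 37 (15.8% of all). At 72 h, 14 of the 19 genes with an E2F word fell and 1 rose (median -0.60), and of the 18 with a window and no E2F word 12 fell and 2 rose (median -0.55). From 12 h to 72 h in control, the medians were -1.31 and -1.34. The words are a description of the letters in these windows. Only the exact words were counted, so a gene without an E2F word may hold a close variant. The windows of CDC45 and MCM10, for example, hold TTTGGCGG.

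4 windows are shown with E2F words in capitals, for genes that behaved unlike: MCM6, with 4 words, fell in control over time and was not called with the mimic. GINS2, with 1 word, fell with the mimic and was not called over time with TMM scaling. ORC3, with 1 word, rose in both comparisons, and RFC1, with none, fell over time and rose with the mimic. Where capitals run for 12 bases, a word on each strand overlaps.

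MCM6 (chr2:135876394-135876693, minus strand): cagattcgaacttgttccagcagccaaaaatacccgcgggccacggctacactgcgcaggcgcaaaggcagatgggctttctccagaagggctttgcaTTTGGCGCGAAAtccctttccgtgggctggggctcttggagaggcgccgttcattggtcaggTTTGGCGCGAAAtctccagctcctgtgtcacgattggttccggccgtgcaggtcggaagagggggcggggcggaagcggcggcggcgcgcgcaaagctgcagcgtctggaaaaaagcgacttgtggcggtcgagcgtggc

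GINS2 (chr16:85688905-85689204, minus strand): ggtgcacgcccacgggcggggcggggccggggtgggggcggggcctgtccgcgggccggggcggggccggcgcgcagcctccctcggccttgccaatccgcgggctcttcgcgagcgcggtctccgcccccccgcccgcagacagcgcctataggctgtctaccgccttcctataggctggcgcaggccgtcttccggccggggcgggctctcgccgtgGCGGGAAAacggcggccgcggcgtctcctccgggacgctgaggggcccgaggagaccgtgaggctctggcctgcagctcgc

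ORC3 (chr6:87589885-87590184, plus strand): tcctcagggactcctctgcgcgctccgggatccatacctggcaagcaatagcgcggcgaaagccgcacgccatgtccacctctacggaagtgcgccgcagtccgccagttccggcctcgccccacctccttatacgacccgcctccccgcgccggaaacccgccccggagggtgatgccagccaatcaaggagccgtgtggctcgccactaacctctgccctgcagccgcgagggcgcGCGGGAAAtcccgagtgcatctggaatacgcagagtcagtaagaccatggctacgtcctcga

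RFC1 (chr4:39366313-39366612, minus strand): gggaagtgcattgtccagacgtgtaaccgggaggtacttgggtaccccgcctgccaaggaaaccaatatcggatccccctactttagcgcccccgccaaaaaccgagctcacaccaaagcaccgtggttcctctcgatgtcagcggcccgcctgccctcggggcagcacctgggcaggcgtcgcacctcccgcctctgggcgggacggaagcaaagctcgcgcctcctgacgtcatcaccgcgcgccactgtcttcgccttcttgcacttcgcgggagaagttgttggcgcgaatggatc

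In the pull-down at 12 h none of the 44 genes was called (edgeR; 0.269% of 17477 genes were lower and 0.326% higher). At an unadjusted p under 0.05 there were 2 (10.1% of all genes tested), and DESeq2 called none. The median log2 fold change was -0.03 over the 44 genes and -0.01 over all genes. Squamous marker sums differed between these libraries too, with 143, 260 and 753 CPM in control and 953, 615 and 183 CPM with miR-497-5p, and their part in the result was not tested. Of the genes with a seed match, CDC6 had 33.9, 31.4 and 27.7 CPM in control and 31.02, 31.2 and 26.1 CPM with miR-497-5p, ORC4 14.0, 14.5 and 11.3 CPM and 19.0, 14.1 and 12.8 CPM, and GINS2 104, 88.0 and 121 CPM and 103, 84.3 and 95.2 CPM. Their groups overlapped. CDT1 had 45.5, 48.5 and 52.3 CPM in control and 41.2, 32.9 and 39.5 CPM with the mimic: lower in every treated library, but without a call. The spread may limit what can be seen. In data simulated for this comparison 4.41% of genes changed by 1 on the log2 scale and 20.3% of those changed by 1.5 were recovered. The simulation gave every gene the same spread, 0.349, estimated over all 12 pull-down libraries. Recovery at the spread of the 44 genes themselves was not simulated.

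The difference between the effects in the 2 assays, pull-down minus RNA-seq, sets what the beads held of a message against its level in the cells. The beads were given a cytoplasmic extract and RNA-seq used the cells. At either time the difference therefore does not isolate holding by the beads from a change in a message's cytoplasmic share. It gave no call among the 44 genes at 12 h (edgeR, 0.357% lower and 0.984% higher over 17078 genes). At an unadjusted p under 0.05 there were 5 (15.3% of all genes tested), and DESeq2 and limma voom called none. Single calls appeared when 1 library was left out: 1 lower without pull-down control replicate 3, and 1 higher without pull-down miR-497-5p replicate 2 or replicate 3.

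At 72 h, 17 of the 44 genes were lower and 4 higher in the pull-down with miR-497-5p (12.6% and 10.2% of all genes tested), with a median log2 fold change of -0.64 over the 44 genes and 0.00 over all genes. The summed mesothelial markers were 5686 to 5779 CPM in control and 6518 to 6982 CPM with the mimic in these libraries, and their part in the result was not tested. Most of this sum, too, came from VIM, KRT8, KRT18 and KRT19. The lower genes were ORC1, ORC6, CDC6 and CDT1 of the licensing group, MCM3, MCM8, MCM10, GINS1, GINS2 and GINS4 of the helicase, POLE, the clamp genes PCNA, RFC2 and RFC3, and FEN1, RPA2 and RPA3. All 17 were also lower in RNA-seq at this time. The higher genes were RFC1, which rose in both assays, and MCM7, PRIM1 and POLD2, which fell in RNA-seq.

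Licensing, helicase and maturation genes were among those with the smallest adjusted p. ORC6 had 27.5, 28.4 and 22.1 CPM in control and 9.15, 9.45 and 7.81 CPM with the mimic (-1.57 ± 0.17, adjusted p = 1.04e-07). GINS2 had 56.0, 54.3 and 56.5 CPM in control and 26.2, 22.0 and 19.9 CPM with the mimic (-1.29 ± 0.14, adjusted p = 1.52e-07). FEN1 had 35.0, 37.4 and 35.1 CPM in control and 10.9, 13.5 and 7.52 CPM with the mimic (-1.78 ± 0.20, adjusted p = 1.94e-07). In each, all treated libraries lay below all controls.

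GINS1 (-1.76 ± 0.23), GINS4 (-1.11 ± 0.22) and MCM3 (-1.43 ± 0.24) likewise fell without overlap: GINS1 had 18.5, 27.0 and 26.8 CPM in control and 8.41, 8.91 and 4.41 CPM with the mimic. GINS4 had 18.3, 27.0 and 31.4 CPM against 12.3, 11.2 and 11.9 CPM. MCM3 had 11.9, 17.8 and 17.4 CPM against 6.61, 4.86 and 5.83 CPM. The polymerase POLE fell by 1.11 ± 0.20 in the same way, from 45.5, 41.3 and 33.9 CPM to 15.5, 21.5 and 19.3 CPM. PCNA, the clamp, fell from 19.7, 16.4 and 17.6 CPM to 4.65, 8.78 and 9.05 CPM (-1.29 ± 0.18, adjusted p = 5.29e-06).

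The 2 small RPA subunits were low in the pull-down at 72 h. RPA2 had 9.08, 12.4 and 11.1 CPM in control and 3.97, 5.81 and 1.98 CPM with the mimic (-1.54 ± 0.28, adjusted p = 0.000173). RPA3 had 2.94, 6.60 and 8.76 CPM in control and 2.01, 2.97 and 1.13 CPM with the mimic (-1.66 ± 0.38, adjusted p = 0.00207); its groups overlapped slightly, the highest treated library lying just above the lowest control. CDC6, with 1 seed match, had 15.4, 24.3 and 27.3 CPM in control and 14.8, 7.97 and 8.88 CPM with the mimic (-1.06 ± 0.23, adjusted p = 0.00129).

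CDT1 had 67.9, 63.1 and 61.3 CPM in control and 46.5, 45.0 and 46.8 CPM with the mimic (-0.48 ± 0.13, adjusted p = 0.00912), a call lost with a replicate block and length offset (-0.34, adjusted p = 0.0824). MCM8 had 59.3, 58.9 and 48.6 CPM against 42.7, 29.97 and 42.3 CPM (-0.53 ± 0.16, adjusted p = 0.0148), and was not called without control replicate 1 (adjusted p = 0.0557), control replicate 2 (0.0568) or miR-497-5p replicate 2 (0.091). The other seed-matched genes, ORC4 (0.51 ± 0.63) and POLD3 (-0.65 ± 0.25, adjusted p = 0.065), were not called. ORC4 had 0.599, 0.505 and 4.01 CPM against 2.54, 4.05 and 1.02 CPM, and POLD3 17.1, 15.1 and 11.8 CPM against 7.24, 12.6 and 8.77 CPM. Without control replicate 3, the only control library with more than 1 CPM of it, ORC4 was higher in the pull-down (2.11, adjusted p = 0.00329) and in the pull-down minus RNA-seq (1.73, adjusted p = 0.0442). Of 7 seed-matched genes, 5 were thus lower and none higher in the pull-down at 72 h. Of all 44 genes 21 were called in either direction, and of all genes tested 12.6% were lower and 10.2% higher. Whether the seed-matched genes differed from the other members was not tested.

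RFC2 and RFC3, subunits of the clamp loader, fell with a wider spread: RFC2 had 6.94, 12.4 and 8.12 CPM against 7.19, 3.11 and 5.09 CPM (-0.78 ± 0.25, adjusted p = 0.0228) and RFC3 0.898, 1.05 and 2.99 CPM against 0.0529, 1.35 and 0.339 CPM (-1.85 ± 0.64, adjusted p = 0.0389). Their groups overlapped. RFC2 was not called without control replicate 2 (adjusted p = 0.185), miR-497-5p replicate 2 (0.109) or replicate 3 (0.0752), and RFC3 not without control replicate 3 (0.253), miR-497-5p replicate 1 (0.204) or replicate 3 (0.143).

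ORC1 and MCM10 were close to absent. ORC1 had 0, 0 and 30 counts in the control libraries and 0 in all 3 treated libraries. With the libraries of each arm pooled, that is at least 6.66-fold lower against a floor of 3 counts, for counting error only. The call of ORC1 rests on control replicate 3, without which no reads were left in either group. MCM10 had 44, 56 and 18 counts in control and 1, 2 and 0 with the mimic, a ratio of 0.0382 (95% interval 0.00777 to 0.114, for counting error only). PRIM1 had 0, 1 and 10 counts in control and 1, 9 and 46 with the mimic (2.88 ± 0.96, adjusted p = 0.0374), with overlapping groups; it was not called without control replicate 1 (adjusted p = 0.118), control replicate 2 (0.15), miR-497-5p replicate 2 (0.0748) or miR-497-5p replicate 3 (0.401).

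RFC1 had 42.9, 49.2 and 48.6 CPM in control and 96.0, 100 and 101 CPM with the mimic in the pull-down at 72 h, a rise of 1.08 ± 0.15 (adjusted p = 4.41e-06) that stood in every alternative. POLD2 had 177, 184 and 198 CPM in control and 230, 224 and 223 CPM with the mimic (0.28 ± 0.09, adjusted p = 0.0295). MCM7 had 22.6, 19.7 and 18.6 CPM in control and 24.4, 28.4 and 36.1 CPM with the mimic (0.55 ± 0.20, adjusted p = 0.046). Their groups did not overlap, but the call of POLD2 was lost without control replicate 1 (adjusted p = 0.144), control replicate 2 (0.111) or any 1 of the treated libraries (0.0669 to 0.1), and that of MCM7 without any control replicate (0.0535 to 0.146) and without miR-497-5p replicate 2 (0.0758) or 3 (0.264). MCM7 shares 8.94% of its exon bases with AP4M1.

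**Figure D4:**
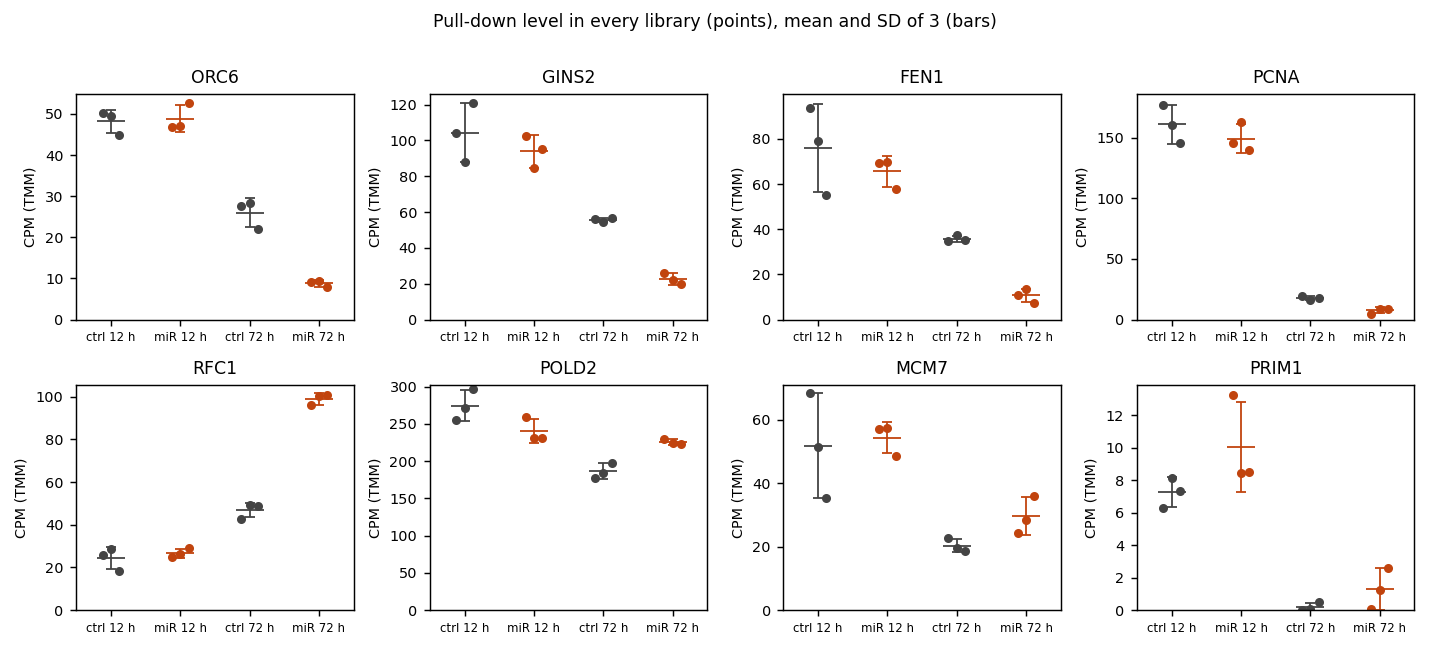
Pull-down level (CPM, linear axes from 0, a scale of its own for each gene) of 8 of the genes in each library, for control and miR-497-5p at 12 h and 72 h; points are libraries, bars the mean and SD of 3. At 72 h ORC6, GINS2, FEN1 and PCNA lie lower and RFC1, POLD2 and MCM7 higher with miR-497-5p without overlap, and PRIM1 overlaps.

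**Figure D5:**
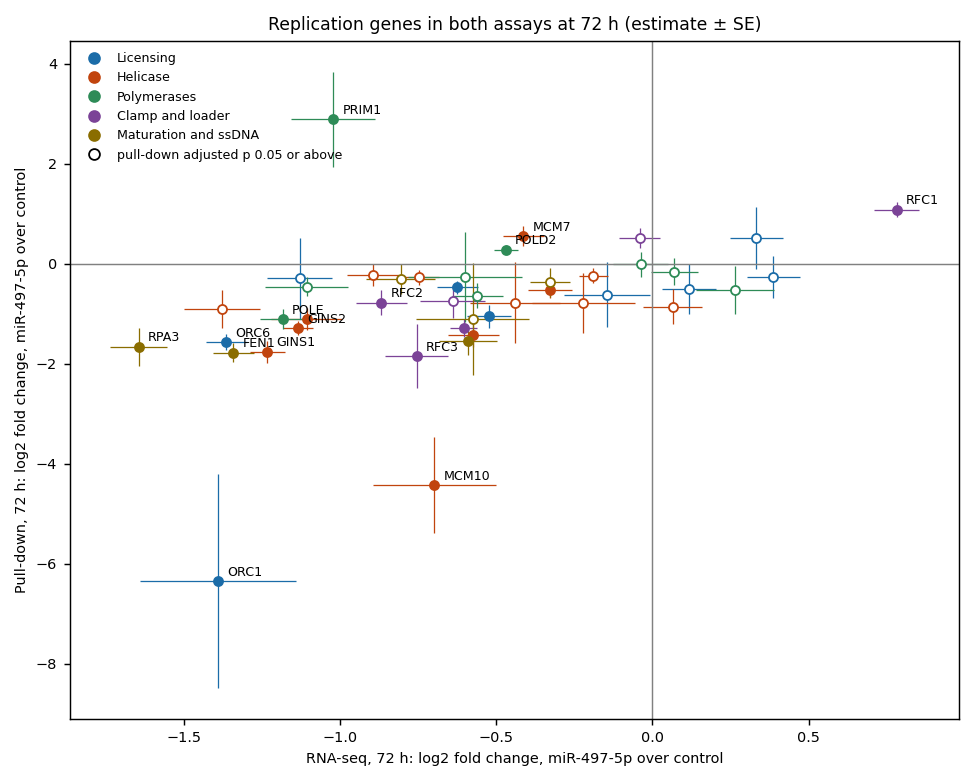
Log2 fold change of miR-497-5p over control at 72 h in RNA-seq (horizontal) and in the pull-down (vertical) for the 44 genes, with standard errors; colours give the role, filled points an adjusted p under 0.05 in the pull-down. MCM7, PRIM1 and POLD2 are the filled points at the upper left, RFC1 the one at the upper right; ORC1 (-6.35, with reads in 1 library) and MCM10 lie far down with wide bars, and 7 of the filled genes bear no name.

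At 72 h the difference between the assays' effects (pull-down minus RNA-seq) was lower for MCM3, MCM10 and PCNA and higher for MCM5, MCM7, PRIM1 and POLD2, 3 and 4 of 44 genes (7.01% and 7.46% of 16896 genes tested). For POLD2 the difference was 0.73 ± 0.07 (adjusted p = 1.96e-06) and for MCM7 0.94 ± 0.20 (adjusted p = 0.00374); these 2 calls stood in every alternative. MCM5 (0.45 ± 0.13, adjusted p = 0.0246) was lower in RNA-seq and had 47.3, 49.5 and 51.3 CPM in control and 42.5, 38.3 and 41.4 CPM with the mimic in the pull-down. The calls of MCM3 (-0.87 ± 0.27), MCM10 (-3.81 ± 1.03), PCNA (-0.71 ± 0.22) and PRIM1 (3.87 ± 1.24) were each lost in several alternatives, limma voom with library weights among them, which called MCM2, MCM5, MCM7, POLD1 and POLD2 higher and none lower. The edgeR fit shares 1 estimate of the spread between assays whose spreads differ. Voom with weights lets the spread differ by whole library, but it too uses 1 variance per gene for both assays. Without RNA-seq control replicate 1 or 3, or RNA-seq miR-497-5p replicate 1, none was lower and 2 were higher, MCM5 being lost as well. None of the 7 seed-matched genes was called with all libraries. Library-total scaling moved the median of all genes by 0.13 on the log2 scale and gave 1 lower and 7 higher members here, and the split over all genes went from 1185 lower and 1260 higher to 747 lower and 2085 higher; at 12 h it moved the median by 0.12.

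Other genes of the same process were taken from lists by role, drawn up with earlier results of these data known. Their counts at 72 h stand against 29.6% lower and 27.9% higher of all genes tested. All 9 genes listed under origin firing, TRAIP among them, fell in RNA-seq at 72 h (median -0.73). They included RECQL4, which helps to assemble the helicase (-1.21 ± 0.05), and TICRR, which brings CDC45 to origins (-1.02 ± 0.10). Both regulators of the CDC7 kinase fell as well, DBF4 (-1.07 ± 0.07) and DBF4B (-1.26 ± 0.08). Of 10 genes that control licensing, 7 fell and 2 rose: FZR1, an activator of the anaphase-promoting complex (-1.21 ± 0.06), its inhibitor FBXO5 (-1.25 ± 0.14) and SKP2, which marks CDT1 for degradation (-0.56 ± 0.04), fell, and CUL4B, a ubiquitin ligase scaffold, rose by 1.16 ± 0.04. Of 11 fork protection genes 8 fell and none rose (median -0.88), with TIMELESS, part of the complex that paces the fork, at -1.19 ± 0.08, TONSL at -1.40 ± 0.09 and the alternative clamp loader genes CHTF18 at -0.90 ± 0.08 and CHTF8 at -1.10 ± 0.05.

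Of 12 genes in a list of other polymerase subunits, nucleases and further fork genes (MCM9, RMI1, TOP1 and TOP2A) 7 fell and 3 rose. RNASEH2A, the catalytic subunit that removes RNA from DNA, fell by 1.84 ± 0.06, POLE3 by 0.87 ± 0.04 and EXO1 by 0.93 ± 0.10, while TOP1, the topoisomerase ahead of the fork, rose by 0.97 ± 0.04. Of 10 genes for chromatin behind the fork 7 fell and 1 rose; the histone chaperone ASF1B fell by 2.01 ± 0.05, the CAF-1 subunits CHAF1A by 0.98 ± 0.06 and CHAF1B by 0.88 ± 0.07, and SSRP1 by 0.44 ± 0.03. The E2F factors were mixed, with 5 of 10 lower and 4 higher: E2F1, an activator of replication genes, fell by 0.97 ± 0.05, E2F7 by 0.39 ± 0.06 and E2F4 by 0.27 ± 0.04, and the partner TFDP2 rose by 0.47 ± 0.05. Of 25 mitotic genes 23 fell and none rose (median -0.80). At 12 h, when 12.5% of all genes tested were called in either direction, the calls were 1 of 9, 0 of 10, 0 of 11, 3 of 12, 2 of 10, 1 of 10 and 3 of 25, in the order of the lists above.

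Of the 7 genes with a seed match, 6 fell in RNA-seq at 72 h and ORC4 rose (median -0.56), and of the 37 without a match 27 fell and 2 rose (median -0.60). Over all genes with a 3′ UTR, the median was -0.05 for 3651 genes with a match and -0.02 for 10296 without at 72 h, and -0.05 and 0.02 at 12 h. In all of these splits, genes with GCTGCTA or GCTGCT alone count as without a match.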

How the data were processed

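Per the labels' protocols, libraries were made from poly(A) RNA and read from both ends over 150 bases. Per the submitters' processing notes, the tools were Trimmomatic 0.36 for trimming, STAR 2.5.2b for alignment (build GRCh38) and featureCounts of Subread 1.5.2 for counting; strand setting and annotation release are not given in the sources used here. The deposited values are whole-number counts per gene of unique reads in exons. Symbols came from GENCODE 44 (56410 of 57500 identifiers).

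From these counts, edgeR 4.0.16 (R 4.3.3) fitted robust quasi-likelihood models after filterByExpr and TMM scaling, using all 12 libraries of an assay and, for the pull-down minus RNA-seq comparisons, all 12 libraries of a time. Benjamini-Hochberg adjustment covered every gene tested, and the threshold was 0.05; SE is the log2 fold change over the square root of F. Alternatives were RLE scaling, library totals, no filter, replicate blocks, DESeq2 1.42.0, single groups and leaving out each library; limma 3.58.1 voom was added after the data were seen. The fits were tested on simulated counts. Values in every library were given for the members with the smallest adjusted p of each role, those against their role's direction, those called in the pull-down and those with a seed match. Members and lists were chosen with earlier results of these data known. Some seed-match windows are not reported here.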

Additional observations from a re-analysis of the deposited data

Results flagged for a closer look

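For 31 of the 44 genes the effect of miR-497-5p in RNA-seq differed between 12 h and 72 h, tested as the 72 h effect minus the 12 h effect over all 12 RNA-seq libraries (edgeR, adjusted p under 0.05). Differences below are on the log2 scale, and a negative one means a lower effect at 72 h. In the licensing group the difference was -1.20 for ORC1, -1.37 for ORC6, -0.47 for CDC6, -0.61 for CDT1 and -1.0 for GMNN, and 0.30 for ORC4, whose call was lost without any of 6 libraries, with DESeq2 and with library totals. In the helicase group it was -0.78 for MCM2, -0.45 for MCM3, -0.83 for MCM5, -0.34 for MCM7, -1.47 for CDC45, -1.07 for GINS1, -1.11 for GINS2 and -0.99 for GINS4. The polymerase subunits were at -0.93 (PRIM1), -1.06 (POLD1), -0.57 (POLD2), -0.43 (POLD3), -0.93 (POLE) and -0.62 (POLE2). Of the clamp genes, PCNA was at -0.68, RFC2 at -0.90, RFC3 at -0.67, RFC4 at -0.76 and RFC1 at 0.81. The maturation and RPA genes were at -1.19 (FEN1), -0.71 (LIG1), -0.65 (DNA2), -0.44 (RPA1), -0.58 (RPA2) and -1.70 (RPA3). The call of DNA2 was lost with DESeq2 (adjusted p = 0.0516), without control replicate 1 at 72 h (-0.43, adjusted p = 0.13) and without miR-497-5p replicate 1 at 72 h (-0.48, adjusted p = 0.0954). That of POLE2 was lost with DESeq2 (adjusted p = 0.0656), with a replicate block and length offset (0.0797) and without miR-497-5p replicate 2 at 72 h (0.0603). ORC4 and RFC1 alone of the 31 had a higher effect at 72 h.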

How the results depend on the processing

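The counts of called genes at 72 h in RNA-seq moved little: leaving out 1 library gave 32 to 33 lower and 3 to 4 higher. At 12 h the same gave 1 to 6 lower and 0 to 1 higher. In the effect at 72 h minus that at 12 h, leaving out 1 library gave 28 to 30 lower and 1 to 2 higher, and library totals and DESeq2 each gave 1 higher. In control over time, library totals gave 1 higher; CDT1 then stood at -0.180 (adjusted p = 0.00764) and POLD2 at -0.117 (adjusted p = 0.00341), and with a replicate block and length offset POLA1 stood at 0.009 (adjusted p = 0.916), against -0.17 before. In the pull-down at 72 h leaving out 1 library gave 15 to 18 lower and 1 to 4 higher. For the pull-down minus RNA-seq, it gave 0 to 1 lower and 0 to 1 higher at 12 h, and 0 to 5 lower and 2 to 5 higher at 72 h; there library totals gave 1 lower and 7 higher, and limma voom 0 lower. Replicate numbers did not pair the samples by the rule that every pair correlates above 0.1: between the mimics, deviations of same-numbered libraries correlated at 0.0612 to 0.218 in RNA-seq at 12 h, 0.00594 to 0.00999 at 72 h, -0.0298 to 0.0276 in the pull-down at 12 h and -0.0238 to -0.00756 at 72 h, and between RNA-seq and pull-down at -0.157 to 0.0332 (control) and -0.0151 to 0.0811 (miR-497-5p) at 12 h and -0.00374 to 0.0138 and -0.00938 to 0.00916 at 72 h. A replicate block, with or without a length offset, gave 1 lower member in the pull-down minus RNA-seq at 72 h; without the offset it gave 6 and 33 lower members in RNA-seq at 12 h and 72 h and 16 in the pull-down at 72 h, and with it 4, 33 and 13. In data simulated for the 12 h comparisons, genes were changed by 0.5, 1 and 1.5 on the log2 scale. In the pull-down 0%, 4.41% and 20.3% of them were recovered, and in RNA-seq 64.9%, 92.5% and 93.2%. Every gene was given the same spread within an assay, so these shares do not give the recovery for the members. Depth and spread were not separated.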
